A study of Saccharomyces cerevisiae W303 with 24 samples.

Results

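Thioredoxins, glutaredoxins and peroxiredoxins are small proteins that keep cysteine residues reduced and remove peroxides. A peroxiredoxin reduces a peroxide with its own cysteine and is then recycled by thioredoxin, which thioredoxin reductase recharges with electrons from NADPH; a glutaredoxin draws on glutathione in place of the reductase. In budding yeast the transcription factors Yap1 and Skn7 induce many of these genes when cells meet peroxides. The 10 genes described here were chosen by name, out of 6176 nuclear open reading frames on the array: the peroxiredoxins *TSA1* (YML028W), *TSA2* (YDR453C), *AHP1* (YLR109W) and *PRX1* (YBL064C), the thioredoxins *TRX1* (YLR043C) and *TRX2* (YGR209C), the thioredoxin reductase *TRR1* (YDR353W), and the glutaredoxins *GRX1* (YCL035C), *GRX2* (YDR513W) and *GRX5* (YPL059W). Each had 1 probe, spotted at 2 places on every array.

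RNA was compared on 24 dual-colour arrays, 1 per strain, from cells grown in rich medium (YEPD) at 30 °C. The strains were 12 disomes-*ubp6Δ*, which in addition lack the deubiquitinating enzyme Ubp6 (*ubp6*::*CaURA3*), and 12 disomes, haploid MATa cells of the W303 background that carry 1 additional chromosome; every chromosome but III, IV, VI and VII was covered. Both copies of the extra chromosome are held by the markers HIS3 and KanMX6, and each array holds in its other dye RNA that the labels call wild-type, which by the strain list is W303 with *ade1*::*HIS3* and *lys2*::*KanMX6*; it is called the reference. Since each extra chromosome was measured in 1 strain per genotype, the 12 strains serve as replicates of carrying an extra chromosome, and nothing separates a strain's own value from the error of its array. In these bulk samples, fewer cells with a high level and less RNA per cell cannot be told apart.

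By the labels Cy5 carried the strain throughout, whereas the measured ratios of the disome-*ubp6Δ* arrays ran the other way. As Cy5 over Cy3, the chromosome named in the label had a mean log2 ratio of −0.98 to −0.59 on the disome-*ubp6Δ* arrays and of 0.68 to 0.99 on the disome arrays. The −0.59 was that of the disome-*ubp6Δ* with chromosome XIV, and the next nearest to 0 was −0.86 in XV. Why XIV was weaker was not tested, and it is kept as a strain in the values below. As labelled, the arrays of the genotypes correlated with r between −0.71 and 0.18 over genes. The sign was therefore turned on the disome-*ubp6Δ* arrays, which gives the deposited table's direction, and every value below is a log2 ratio of strain over reference; a log2 ratio of 1 is a doubling. With this sign the reference signal of *ADE1*, which its genotype disrupts, was 5.08 to 36.0 on the disome-*ubp6Δ* arrays and 13.6 to 77.6 on the disome arrays. *LYS2*, also disrupted in it, had 1055 to 6735 in disome-*ubp6Δ* RNA and 250.0 to 647 in its reference. With the labelled sign kept, every disome-*ubp6Δ* mean below takes the opposite sign. *UBP6* signal was 24.2 to 268 in the disome-*ubp6Δ* RNA and only 12.9 to 65.1 in its reference, against 1235 to 3924 in the disome RNA and 1842 to 4474 in its reference, so the reference of the disome-*ubp6Δ* arrays, labelled wild-type, also had little *UBP6* RNA. Of the mating type markers, the a-specific *STE2* had 2676 to 6540 in disome-*ubp6Δ* RNA and 477 to 14349 in disome RNA, and the alpha-specific *STE3* 21.6 to 122 and 17.0 to 169. Other markers were not as far apart. The alpha-specific *SAG1* had 343 to 817 in disome-*ubp6Δ* RNA and 286 to 1012 in disome RNA. This overlapped the a-specific *AGA2*, at 135 to 2574 and 251 to 3129. In disome RNA the a-specific *BAR1* and *MFA1* went down to 78.8 and 200.

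The arrays lay on 4 slides, here called A to D. The disome-*ubp6Δ* arrays lay on slide C (I, II, V and VIII) and slide D (the other 8), and the disome arrays on slide A (I to XII), slide B (XIII, XIV and XV) and slide C (XVI). No pair of a disome-*ubp6Δ* and its disome shared a slide, and the strain appears to be in opposite dyes in the genotypes, so genotype, dye and slide cannot be told apart in the comparison between them. Outlier spots were 0 to 0.0322% of spots on the disome-*ubp6Δ* arrays and 0.00806 to 9.48% on the disome arrays, where slide A held 1.57 to 9.48%. The reference signals of slide A had a median r of 0.646 with those of slide B, against 0.921 within slide A and 0.996 within slide B, over genes. Since both spots were outliers, *TRX2* was not measured in disomes IX, XI and XII, *TSA1* in X and XI, *AHP1* in IX and XII and *GRX1* in X, while both *TSA2* spots were too dim in IX; all 10 genes were measured in all 12 disomes-*ubp6Δ*.

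In the comparison of strain with reference, 2 of the 10 genes, *TSA1* and *GRX1*, were higher in the disomes-*ubp6Δ* and none was lower, by limma's moderated test at an adjusted p of 0.05 over all genes. In the disomes 5 were higher, *TRX2*, *GRX1*, *TSA2*, *TSA1* and *GRX5*, and 1 was lower, *TRR1*. Over all genes tested, 35.1% passed the test in the disomes-*ubp6Δ* (13.9% higher and 21.2% lower) and 39.4% in the disomes (14.8% higher and 24.6% lower). The median of the 10 genes was 0.19 in the disomes-*ubp6Δ*, where that of all genes was −0.039, and 0.30 in the disomes, where that of all genes was −0.034. A gene's own disome is left out of these values and is given further on. When slide was taken as a random block, the counts fell to 1 in the disomes-*ubp6Δ* (*TSA1*, adjusted p = 0.0456) and 3 in the disomes (*TRX2*, *GRX1* and *TRR1*, adjusted p = 0.0273, 0.0429 and 0.0437 by limma).

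**Figure D1:**
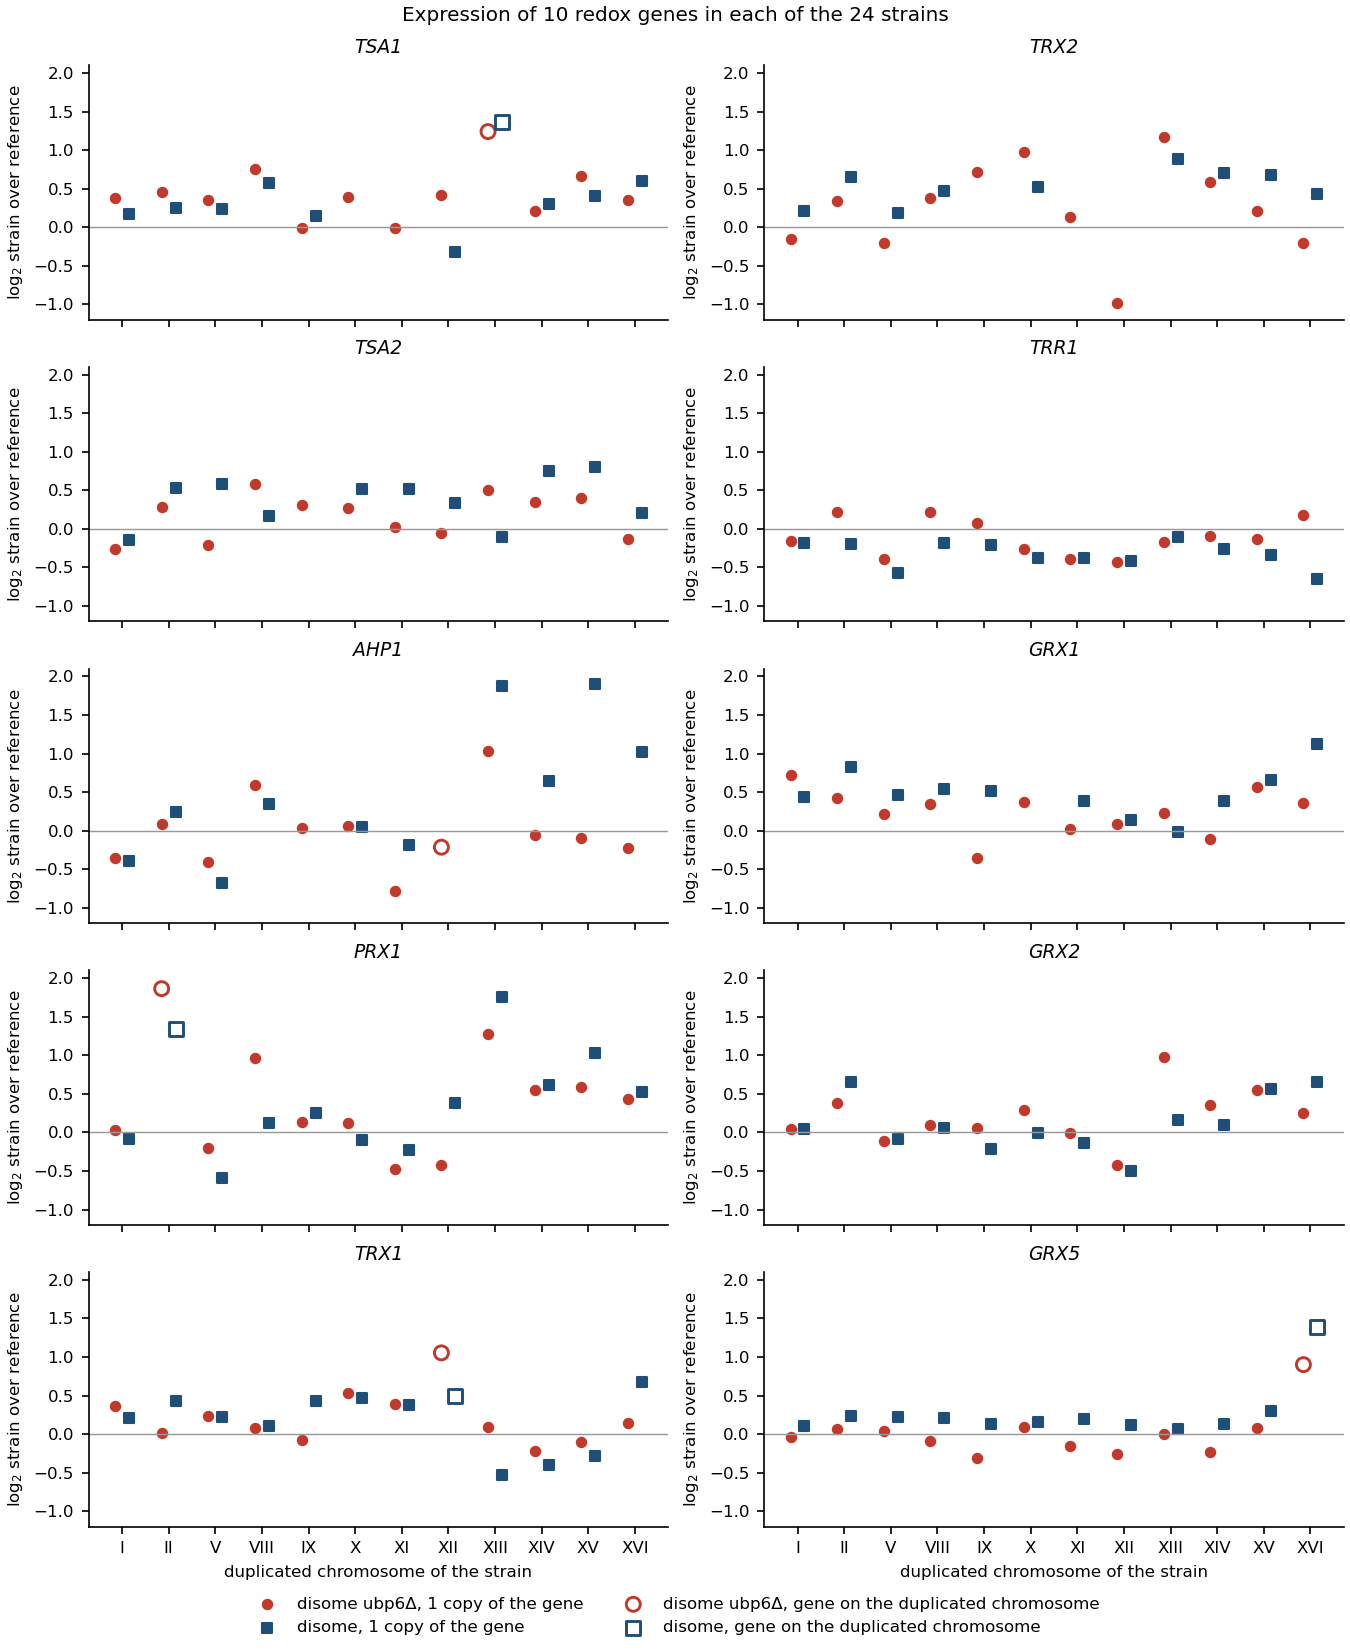
Log2 ratio of strain over reference of each gene in each strain, with disomes-ubp6Δ as red circles left of disomes as blue squares; open symbols mark strains in which the gene lies on the duplicated chromosome, and a missing symbol is a gene whose spots were removed. TRR1 is below 0 in all 12 disomes, while AHP1 spans −0.68 to 1.91 among disomes in which it is not duplicated.

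Among the peroxiredoxins, *TSA1*, the major cytosolic enzyme, was higher in strain than in reference in both genotypes. Its log2 ratio was lowest in the disome-*ubp6Δ* with chromosome IX at −0.0085, had a median of 0.37 and was highest in VIII at 0.75. In the disomes it ran from −0.33 in XII over a median of 0.24 to 0.60 in XVI. All but 2 of 11 disomes-*ubp6Δ* and all but 1 of 9 disomes lay above 0, and the genotypes overlapped over most of their range. The mean was 0.36 ± 0.076 in the disomes-*ubp6Δ* (SE, n = 11, adjusted p = 0.00331 by limma) and 0.26 ± 0.091 in the disomes (SE, n = 9, adjusted p = 0.0395). Leaving out any 1 of 8 disomes lost the disome call (mean 0.22 to 0.34 over all such fits), as did normexp background correction (adjusted p = 0.0601 by limma) and keeping slide A alone (0.18, adjusted p = 0.197 by limma).

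*TSA2*, the weakly expressed paralog of *TSA1*, had processed signals in either dye of 378 to 880 on the disome-*ubp6Δ* arrays and 25.8 to 761 on the disome arrays. Its ratio was −0.26 in the disome-*ubp6Δ* with chromosome I, 0.28 at the median and 0.58 in VIII, with 8 of 12 above 0. In the disomes it was −0.15 in I, 0.52 at the median and 0.81 in XV, with 9 of 11 above 0. The disome median was the value of X, whose 2 spots differed by 1.04 in log2 ratio. Its signals were 121 in the disome and 96.1 in the reference. Disome I was the lowest strain in either genotype. The mean passed the test in the disomes (0.38 ± 0.092, SE, n = 11, adjusted p = 0.00660 by limma), not with slide as a block (adjusted p = 0.180 by limma). The disome-*ubp6Δ* mean was 0.17 ± 0.083 (SE, n = 12, adjusted p = 0.115 by limma). How far RNA of *TSA1* binds the *TSA2* probe was not tested.

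*AHP1*, a peroxiredoxin that prefers alkyl hydroperoxides, had the widest spread of the 10 genes among the disomes (SD 0.89, n = 10), while among the disomes-*ubp6Δ* (SD 0.49, n = 11) *TRX2* (SD 0.59) and *PRX1* (SD 0.55) spread more. Its ratio was −0.78 in the disome-*ubp6Δ* with chromosome XI, −0.062 at the median and 1.03 in XIII, with 5 of 11 above 0. In the disomes it was −0.68 in V, 0.29 at the median and 1.91 in XV, with 7 of 10 above 0. The mean did not pass the test in the disomes-*ubp6Δ* (−0.012 ± 0.13, SE, n = 11, adjusted p = 0.955 by limma) or in the disomes (0.48 ± 0.25, SE, n = 10, adjusted p = 0.138 by limma). The disome values fell apart by slide. On slide B *AHP1* was 1.87 in XIII, 0.64 in XIV and 1.91 in XV, and on slide C it was 1.02 in XVI, whereas the 6 disomes measured on slide A lay between −0.68 and 0.35, so that the slides did not overlap. The reference signal moved with this: on a log2 scale relative to the 75th percentile of the array it averaged 1.23 on slide B and was 1.31 beside disome XVI, against 3.48 on slide A. Its part in the ratios was not tested. In the disomes-*ubp6Δ* the reference averaged 4.87 on slide C and 5.36 on slide D, and the strains with chromosomes XIII, XIV and XV had ratios of 1.03, −0.062 and −0.091.

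*PRX1*, the mitochondrial peroxiredoxin, followed *AHP1* across the strains. It was −0.48 in the disome-*ubp6Δ* with chromosome XI, 0.14 at the median and 1.27 in XIII; in the disomes it was −0.59 in V, 0.25 at the median and 1.75 in XIII. Over the arrays in which neither gene was duplicated, with each genotype centred on its mean, *PRX1* and *AHP1* had the highest correlation of the 45 pairs of members (r = 0.92, 19 arrays), a description of arrays that share reference RNA and slides. The mean of *PRX1* was 0.27 ± 0.15 in the disomes-*ubp6Δ* (SE, n = 11, adjusted p = 0.171 by limma) and 0.33 ± 0.17 in the disomes (SE, n = 11, adjusted p = 0.146 by limma). As for *AHP1*, the slide B disomes (0.62 to 1.75) lay above those of slide A (−0.59 to 0.38, mean −0.038). The reference level of *PRX1* averaged −0.86 on slide B and 0.65 on slide A.

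**Figure D2:**
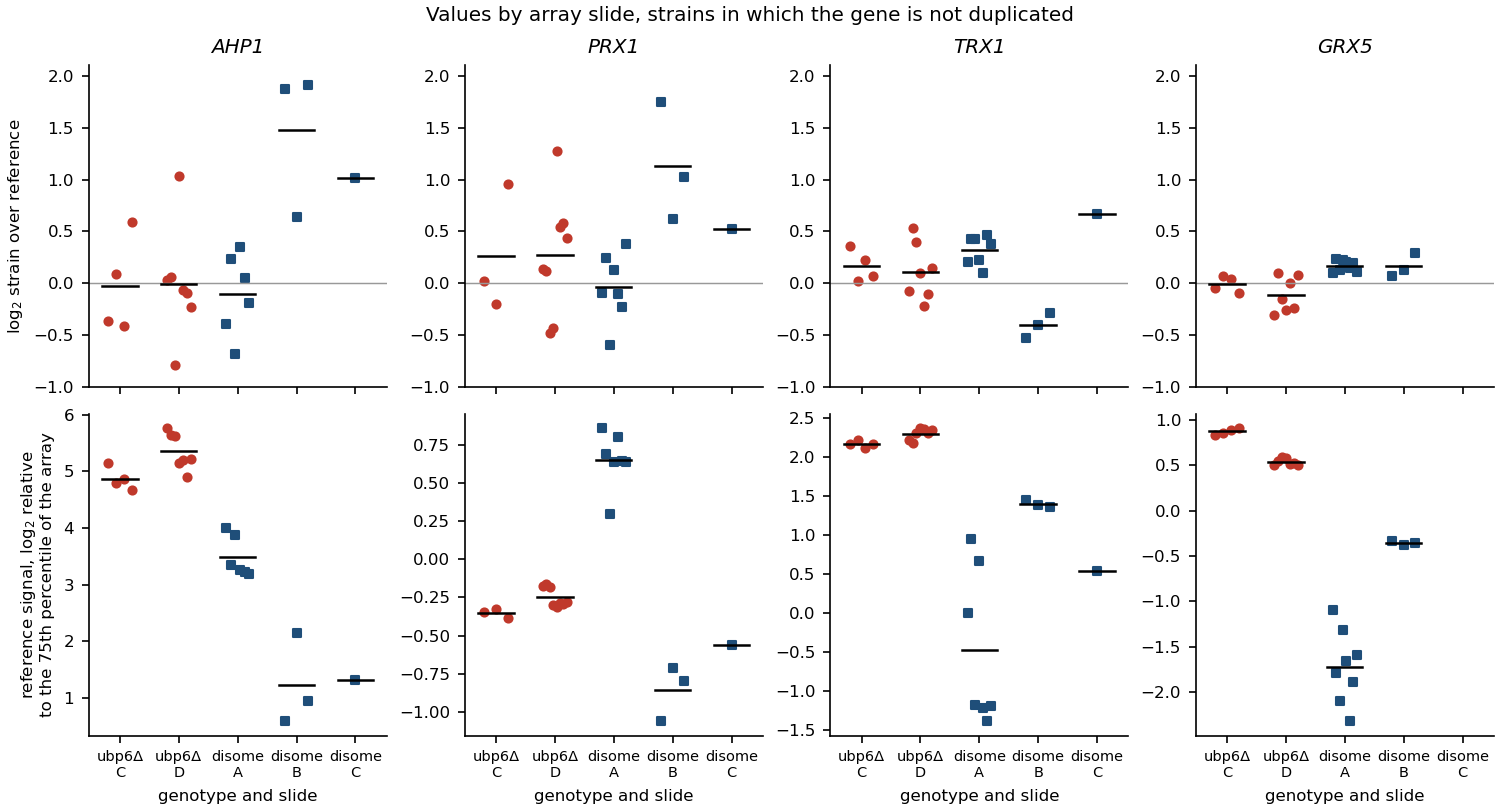
Top row, log2 ratio of strain over reference, and bottom row, reference signal on a log2 scale relative to the 75th percentile of the array, for 4 genes by genotype and slide (disome-ubp6Δ red, disome blue, horizontal line the mean; strains in which the gene is duplicated left out, hence no GRX5 value for disome XVI). AHP1 ratios are 0.64 to 1.91 on slide B, where the reference signal is lowest, and −0.68 to 0.35 on slide A, and TRX1 is below 0 on slide B and above 0 on slide A.

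Of the thioredoxins, *TRX2*, whose promoter is a textbook target of Yap1 and Skn7, was above the reference in all 9 disomes in which it was measured. It was −0.98 in the disome-*ubp6Δ* with chromosome XII, 0.27 at the median and 1.17 in XIII, with 8 of 12 above 0. In the disomes it was 0.18 in V, 0.52 at the median and 0.89 in XIII. The disome range thus lay within the wider range of the disomes-*ubp6Δ*. The mean was 0.25 ± 0.15 in the disomes-*ubp6Δ* (SE, n = 12, adjusted p = 0.225 by limma) and 0.53 ± 0.080 in the disomes (SE, n = 9, adjusted p = 0.000687 by limma), a ratio of 1.44 in the disomes. Without the strain with chromosome XII, the disome-*ubp6Δ* mean was 0.36 and passed the test (adjusted p = 0.0424 by limma); in the disomes XII was one of the strains that gave no value. Its removed *TRX2* spots had signals of 7851 in the disome and 13007 in its reference, so they lay below 0, and those of IX and XI above 0. With outlier spots kept, the disome mean was 0.39 and still passed (n = 12, adjusted p = 0.0157 by limma).

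*TRX1*, the other cytosolic thioredoxin, did not pass the test in either genotype. In the disomes-*ubp6Δ* it was −0.22 in XIV, 0.096 at the median and 0.53 in X, and in the disomes −0.53 in XIII, 0.22 at the median and 0.67 in XVI. The means were 0.13 ± 0.075 (SE, n = 11, adjusted p = 0.182 by limma) in the disomes-*ubp6Δ* and 0.15 ± 0.11 in the disomes (SE, n = 11, adjusted p = 0.282 by limma). By slide the disomes split in the direction opposite to *AHP1*: all 7 on slide A were above 0 (0.10 to 0.47, mean 0.32) and all 3 on slide B below 0 (−0.53 to −0.28). On slide A alone the mean passed the test (adjusted p = 0.00227 by limma). In the disomes-*ubp6Δ*, where XIII, XIV and XV lie on slide D with 5 other strains, *TRX1* was 0.096, −0.22 and −0.10 in them. *TRX1* and *PRX1* had the lowest correlation of the 45 pairs (r = −0.62, 20 arrays).

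*TRR1*, the cytosolic thioredoxin reductase, was the only member lower than the reference in the disomes. It lay below 0 in all 12 of them, at −0.64 in XVI, −0.29 at the median and −0.10 in XIII. In the disomes-*ubp6Δ* it was −0.43 in XII, −0.15 at the median and 0.22 in VIII, with 8 of 12 below 0. The mean was −0.11 ± 0.073 in the disomes-*ubp6Δ* (SE, n = 12, adjusted p = 0.250 by limma) and −0.32 ± 0.055 in the disomes (SE, n = 12, adjusted p = 0.000737 by limma). In the disomes the mean was −0.31 on slide A, −0.23 on slide B and −0.64 in XVI on slide C, and every alternative processing kept the call.

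Among the glutaredoxins, *GRX1*, a dithiol enzyme of the cytosol, was higher than the reference in both genotypes. It was −0.36 in the disome-*ubp6Δ* with chromosome IX, 0.29 at the median and 0.72 in I, with 10 of 12 above 0; in the disomes it was −0.018 in XIII, 0.46 at the median and 1.12 in XVI, with 10 of 11 above 0. Its mean was 0.24 ± 0.085 in the disomes-*ubp6Δ* (SE, n = 12, adjusted p = 0.0402 by limma) and 0.49 ± 0.090 in the disomes (SE, n = 11, adjusted p = 0.00124 by limma), ratios of 1.18 and 1.41. The disome-*ubp6Δ* call was lost with slide as a block (adjusted p = 0.169 by limma), with duplicated chromosomes kept (adjusted p = 0.0754 by limma), on slide D alone (0.15, adjusted p = 0.299 by limma) and when any 1 of 8 strains was left out; the disome call held in each fit run.

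*GRX2*, its paralog, did not pass the test in either genotype. Its ratio in the disomes-*ubp6Δ* was −0.43 in XII, 0.17 at the median and 0.98 in XIII, and in the disomes −0.51 in XII, 0.051 at the median and 0.66 in XVI. The strain with chromosome XII was the lowest in both genotypes, and 10 of 12 pairs had the same sign. The means were 0.20 ± 0.098 in the disomes-*ubp6Δ* (SE, n = 12, adjusted p = 0.118 by limma) and 0.11 ± 0.098 in the disomes (SE, n = 12, adjusted p = 0.403 by limma). Without XII, the disome-*ubp6Δ* mean was 0.26 and passed the test (adjusted p = 0.0376 by limma).

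*GRX5*, a monothiol glutaredoxin of mitochondria needed for iron-sulfur cluster assembly, had small ratios with little spread. It was −0.31 in the disome-*ubp6Δ* with chromosome IX, −0.041 at the median and 0.098 in X, with 5 of 11 above 0. In the disomes it was 0.071 in XIII, 0.15 at the median and 0.30 in XV, all 11 above 0. The ranges of the genotypes overlapped only between 0.071 and 0.098. The mean was −0.072 ± 0.059 in the disomes-*ubp6Δ* (SE, n = 11, adjusted p = 0.371 by limma) and 0.17 ± 0.043 in the disomes (SE, n = 11, adjusted p = 0.00798 by limma). With slide as a block the disome mean kept its size at 0.17 and did not pass the test (adjusted p = 0.207 by limma), nor did it with duplicated chromosomes kept (0.27, adjusted p = 0.0646 by limma).

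**Figure D3:**
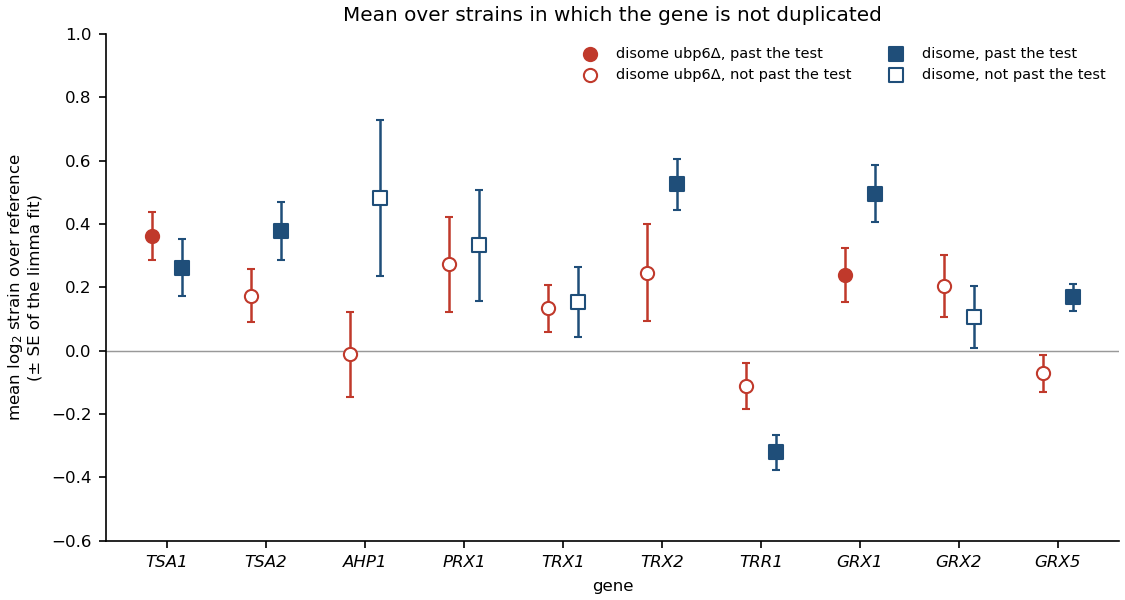
Mean log2 ratio of strain over reference of each gene with its standard error from the limma fit, disomes-ubp6Δ as red circles left of disomes as blue squares; filled symbols passed an adjusted p of 0.05 over all genes. TSA1 and GRX1 are filled in both genotypes, and TRR1 is the only filled symbol below 0.

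The genotypes were compared by taking, for each extra chromosome, the disome-*ubp6Δ* minus the disome. Since the reference of the disome-*ubp6Δ* arrays also had little *UBP6* RNA, each ratio is against its own reference, and a change that Ubp6 loss brings to strain and reference alike would not show in this difference. Of the 10 genes, 1 passed the test in this difference, *GRX5*, which was lower in the disomes-*ubp6Δ*. Over all genes 34.2% passed, 16.2% higher and 18% lower, and the median difference was −0.12 for the members and −0.020 for all genes. *GRX5* differed by −0.24 ± 0.062 (SE, n = 11 pairs, adjusted p = 0.0102 by limma), and all 11 pairs lay below 0, at −0.43 for IX, −0.053 for X and the rest between. Within the slide combinations the mean was −0.20 for the 4 pairs on slides C and A, −0.30 for the 4 on D and A, and −0.22 for the 3 on D and B. With the combination of slides as a random block the difference was also −0.24 and did not pass the test (adjusted p = 0.114 by limma), and with the labelled sign it was −0.097 (adjusted p = 0.379 by limma).

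The other 9 genes did not pass the test in the difference, though for some of them the 95% interval lay to one side of 0. *AHP1* differed by −0.50 ± 0.20 (SE, n = 10 pairs, interval −0.93 to −0.062, adjusted p = 0.0725 by limma), from −1.998 for XV to 0.27 for V. Its 3 pairs on slides D and B (mean −1.18) and the pair of XVI (−1.25) lay below the 6 others, which were between −0.59 and 0.27. *GRX1* differed by −0.27 ± 0.11 (SE, n = 11 pairs, interval −0.50 to −0.036, adjusted p = 0.0693 by limma), with 9 of 11 pairs below 0. *TRR1* differed by 0.21 ± 0.079 (SE, n = 12 pairs, interval 0.040 to 0.38, adjusted p = 0.0533 by limma), with 9 of 12 pairs above 0 and XVI at 0.83 the highest. Without the pair of XIII, *GRX1* (−0.32, adjusted p = 0.0334 by limma), *TRR1* (0.23, adjusted p = 0.0370 by limma) and *TSA2* (−0.30, adjusted p = 0.0319 by limma) passed, as did *GRX1* without I (adjusted p = 0.0371 by limma) and *TRR1* without XII (adjusted p = 0.0455 by limma). With outlier spots kept, *AHP1* (−0.50, adjusted p = 0.0471 by limma) and *TRR1* (0.21, adjusted p = 0.0499 by limma) passed. For the rest the interval held 0: −0.43 to 0.072 for *TRX2*, −0.46 to 0.031 for *TSA2*, −0.24 to 0.20 for *TRX1*, −0.097 to 0.29 for *GRX2*, −0.085 to 0.36 for *TSA1* and −0.33 to 0.21 for *PRX1*, which does not show that the genotypes were alike. With the labelled sign 5 members would pass: *TRR1* would be higher, and *TRX2*, *GRX1*, *TSA1* and *TSA2* lower, in the disomes-*ubp6Δ*. These are the tests of the pair mean given below and no separate result. Keeping the labelled sign exchanges difference and pair mean, up to sign and scale.

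**Figure D4:**
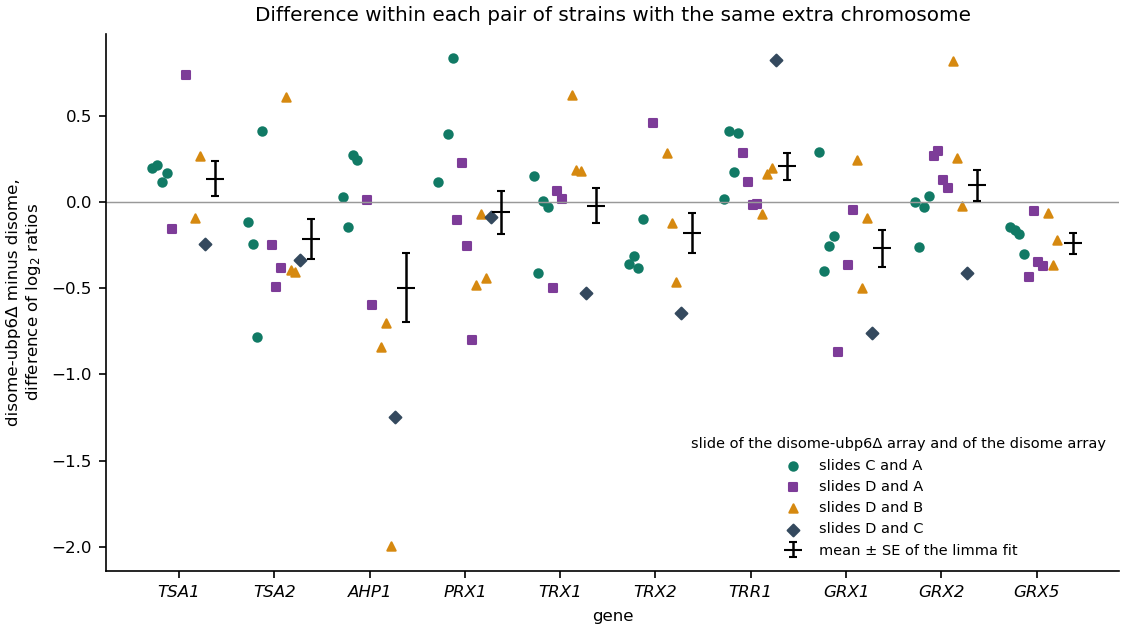
Disome-ubp6Δ minus disome of the log2 ratios, 1 symbol per extra chromosome, coloured by the slides of both arrays, with the mean and its standard error from the limma fit at the right of each gene. All 11 GRX5 pairs are below 0, and the lowest 4 AHP1 pairs are the 3 on slides D and B and the 1 on slides D and C.

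The mean of each pair, in which a dye effect would cancel if the strain is in opposite dyes, was higher than 0 for *TRX2*, *GRX1*, *TSA1* and *TSA2* and lower for *TRR1*, 5 of 10 genes, against 38.1% of all genes (13.9% higher and 24.2% lower). *TRX2* averaged 0.43 ± 0.11 (SE, n = 9 pairs, adjusted p = 0.00827 by limma), *GRX1* 0.36 ± 0.073 (n = 11, adjusted p = 0.00239 by limma) and *TSA1* 0.33 ± 0.070 (n = 9, adjusted p = 0.00439 by limma). *GRX1* was above 0 in all 11 pair means and *TSA1* in all 9. *TSA2* averaged 0.27 ± 0.070 (n = 11, adjusted p = 0.00937 by limma) and *TRR1* −0.22 ± 0.052 (n = 12, adjusted p = 0.00555 by limma), with *TRR1* below 0 in 10 of 12 pairs. *GRX5*, which passed in the disomes, averaged 0.048 ± 0.042 (n = 11, adjusted p = 0.379 by limma). With slide as a block *TSA2* was lost (adjusted p = 0.0528 by limma) and the other 4 remained. With outlier spots kept, which adds 3 pairs to *TRX2*, its mean was 0.32 and did not pass (adjusted p = 0.0601 by limma). With the labelled sign on the disome-*ubp6Δ* arrays only *GRX5* passed, at 0.12 (adjusted p = 0.0102 by limma), which is the test of its difference above.

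Of the 10 genes, 5 lie on a chromosome that is duplicated in one of the strains. The copy-number response is the ratio in that strain minus the mean of the other strains of the genotype; it rests on 1 array and has no test. *PRX1*, on chromosome II, was 1.86 in the disome-*ubp6Δ* with chromosome II, 1.59 above the other strains, and 1.34 in the disome, 1.01 above the others. This stood at percentile 97.8 of the 409 duplicated genes measured in the disome-*ubp6Δ*, whose median response was 0.98, and at percentile 71.8 of the 400 in the disome, whose median was 0.89. The 2 *PRX1* spots differed by 0.36 in log2 ratio on the array of disome II. The response in the disome was taken against a mean of 0.33 over all other disomes. Those on slide A, where disome II lay, averaged −0.038. *TSA1*, on chromosome XIII, was 1.24 in the disome-*ubp6Δ* and 1.36 in the disome, with responses of 0.88 in the disome-*ubp6Δ* and 1.101 in the disome, near the medians of that chromosome's genes (0.93 and 1.05). *GRX5*, on chromosome XVI, was 0.90 in the disome-*ubp6Δ* and 1.395 in the disome, with responses of 0.97 in the disome-*ubp6Δ* and 1.23 in the disome.

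The 2 members on chromosome XII differed from each other. *TRX1* was 1.05 in the disome-*ubp6Δ* with chromosome XII, a response of 0.92 at percentile 53.9 of that strain's duplicated genes, and 0.50 in the disome, a response of 0.35 at percentile 19.1. The 2 *TRX1* spots differed by 0.82 in log2 ratio on the array of disome XII, more than the value itself. On the disome-*ubp6Δ* array they differed by 0.043. *AHP1* was −0.21 in the disome-*ubp6Δ* with chromosome XII, a response of −0.20, at percentile 4.35 of 529 duplicated genes whose median was 0.88. The 2 *AHP1* spots differed by 0.33 in log2 ratio on that disome-*ubp6Δ* array, more than the size of the value. Both *AHP1* spots were outliers on the array of disome XII, so it gave no value there. The removed spots had signals of 24426.1 in the disome and 23946.5 in its reference. The SD of the response over the duplicated genes of these arrays was 0.44 to 0.65.

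**Figure D5:**
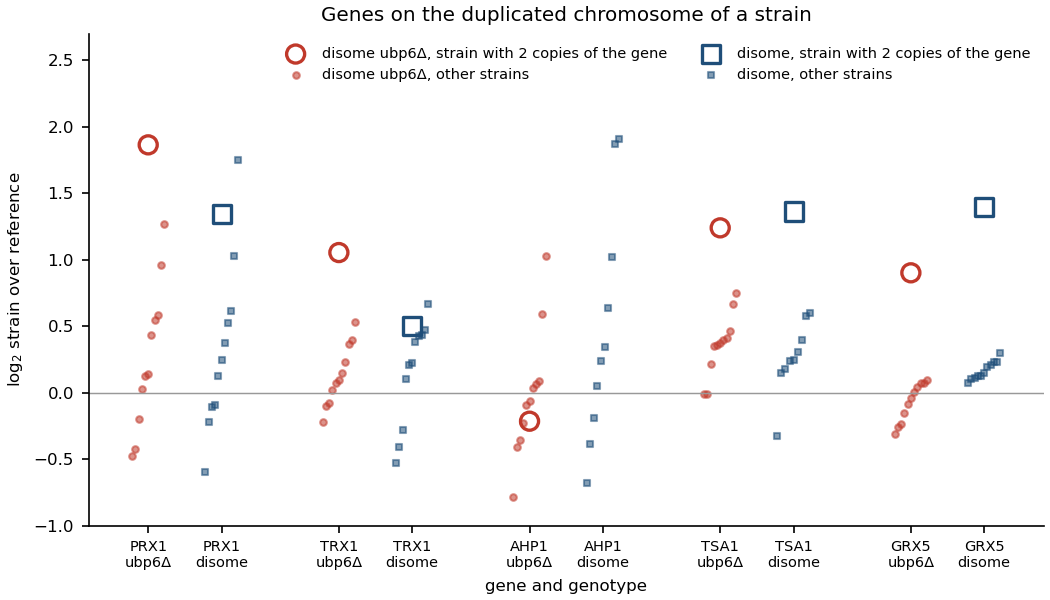
Log2 ratio of strain over reference of the 5 genes that are duplicated in one strain: the large open symbol is the strain with 2 copies, the small symbols are the other strains of the genotype (disome-ubp6Δ red, disome blue). GRX5 and TSA1 with 2 copies stand above every other strain in both genotypes, while AHP1 with 2 copies lies at −0.21 within the other disomes-ubp6Δ.

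The strains also differed in the level of general stress genes, a list of 16 genes such as heat shock and trehalose genes. Its mean ratio ran from −0.52 in XII over a median of 0.33 to 1.38 in XIII in the disomes-*ubp6Δ*, and from −0.69 in V over a median of 0.33 to 1.74 in XV in the disomes. The median of the members was 0.50 in the disome-*ubp6Δ* with chromosome XIII and −0.34 in that with XII, the highest and lowest of its genotype. In the disomes it was highest in XV (0.61, 10 members measured) and lowest in XI (0.028, 8 members measured). The *TRX2* and *TSA1* spots removed in XI had signals of 17414.9 and 17972.5 in the disome. Its reference had 14047.6 and 14843.8, so both genes lay above 0 there and are missing from its median. Between 7 and 10 members were measured per disome, so these medians do not rest on the same genes. Disome XVI came near XV with 0.60, at a stress mean of −0.13. Over the 12 strains of a genotype, the median of the members and the stress mean had r = 0.80 in the disomes-*ubp6Δ* and 0.33 in the disomes, a description without a test. Not counting duplicated copies, *AHP1* and *PRX1* were both highest in XIII among the disomes-*ubp6Δ*, the strain highest in the stress list, and both lowest in XI, whose stress mean of −0.13 was not the lowest. Among the disomes both were lowest in V, the strain lowest in the stress list; *AHP1* was highest in XV, the strain highest in it, and *PRX1* in XIII, whose stress mean was 1.16. The part of the stress genes in the members' values was not tested.

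For each member, the 3 annotated genes with the most similar pattern were sought over all arrays, with each genotype centred on its mean and at least 18 arrays. *PRX1* was most like YNR014W (r = 0.93, 20 arrays), YDL124W (r = 0.90, 22 arrays) and *PIC2* (r = 0.87, 20 arrays), and *AHP1* most like YDL124W (r = 0.87, 21 arrays), YNR014W (r = 0.86, 19 arrays) and *PAI3* (r = 0.86, 19 arrays); they thus shared 2 of 3 genes. *TRX1* was most like *DUT1* (r = 0.90, 20 arrays), *LSM2* and *NAT5*, and *TRX2* like *JHD2* (r = 0.86, 19 arrays), *MRX20* and *TIM8*. *TRR1* was nearest to *RPS4A* (r = 0.74, 20 arrays), *TRR2*, the mitochondrial thioredoxin reductase (r = 0.74, 22 arrays), and *RPL2A*. *GRX1* was nearest to *RPS3* (r = 0.86, 18 arrays), *GRX2* to *MRPL37* (r = 0.79, 21 arrays), *GRX5* to *YSC83* (r = 0.79, 20 arrays), *TSA1* to *AHC1* (r = 0.81, 18 arrays) and *TSA2* to *NQM1* (r = 0.74, 23 arrays). These are the highest of 5023 to 5413 genes and share arrays, slides and reference, so they are given as a description. Among the members, the next highest pairs after *AHP1* and *PRX1* were *GRX1* with *GRX5* (r = 0.75, 21 arrays) and *GRX1* with *TSA1* (r = 0.71, 20 arrays).

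The other genes of the thioredoxin and glutathione pathways were taken from a list of 23. Of the 22 tested in the disomes-*ubp6Δ*, 2 were higher and 2 lower; of the 22 tested in the disomes, 4 were higher and 1 lower; and of 21 tested in the difference none was higher and 6 were lower. Their median was −0.067 in the disomes-*ubp6Δ*, 0.091 in the disomes and −0.12 in the difference. Over all genes, 13.9% were higher and 21.2% lower in the disomes-*ubp6Δ*, and 14.8% and 24.6% in the disomes. In the difference these shares were 16.2% and 18%. *SRX1*, sulfiredoxin, which repairs overoxidized peroxiredoxins, was higher in both genotypes: 0.75 ± 0.13 in the disomes-*ubp6Δ* (SE, n = 11, adjusted p = 0.00135 by limma) and 0.50 ± 0.17 in the disomes (SE, n = 11, adjusted p = 0.0344 by limma). *ECM4*, a glutathione transferase, averaged 0.32 in the disomes-*ubp6Δ* (adjusted p = 0.0777 by limma) and 0.90 in the disomes (adjusted p = 0.000272 by limma), and its difference of −0.58 passed (adjusted p = 0.00133 by limma). The difference was also negative and past the test for the glutaredoxin *GRX6* (−0.37, with means of −0.18 in the disomes-*ubp6Δ* and 0.20 in the disomes that each passed), the glutathione transferase *GTT2* (−0.37), the peroxidase *HYR1* (−0.35) and the glutathione synthetase *GSH2* (−0.29).

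NADPH, which thioredoxin reductase spends, comes largely from the pentose phosphate pathway, and of 6 genes of its supply 3 were higher and 1 lower in the disomes-*ubp6Δ*, and none higher and 3 lower in the disomes. In the difference 4 were higher and 1 lower. Of all genes tested, 35.1% passed in the disomes-*ubp6Δ*, 39.4% in the disomes and 34.2% in the difference. *ZWF1*, glucose-6-phosphate dehydrogenase, averaged 0.91 ± 0.19 in the disomes-*ubp6Δ* (SE, n = 11, adjusted p = 0.00318 by limma) and −0.68 ± 0.14 in the disomes (SE, n = 11, adjusted p = 0.00206 by limma), a difference of 1.59 ± 0.25 that was above 0 in all 11 pairs (adjusted p = 0.000574 by limma). Its pair mean, in which a dye effect would cancel, was 0.11 ± 0.10 (SE, n = 11, adjusted p = 0.408 by limma). A dye effect on *ZWF1* was not tested. The transketolase *TKL1* (0.52), the 6-phosphogluconate dehydrogenase *GND1* (0.37) and the transaldolase *TAL1* (0.33) also had positive differences past the test, and the aldehyde dehydrogenase *ALD6* a negative one (−0.37). As for *GRX5*, dye and slide go with genotype in these values.

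Among 5 regulators, 1 was higher and 1 lower in the disomes-*ubp6Δ*, 2 higher and 1 lower in the disomes, and 1 higher and 1 lower in the difference. These counts, and those of the Yap1 targets below, stand beside shares over all genes. Those shares were 35.1% in the disomes-*ubp6Δ*, 39.4% in the disomes and 34.2% in the difference. *YAP1* averaged 0.15 ± 0.057 in the disomes-*ubp6Δ* (SE, n = 11, adjusted p = 0.0489 by limma) and 0.16 ± 0.050 in the disomes (SE, n = 11, adjusted p = 0.0236 by limma). *MSN2*, an activator of general stress genes, was lower in both, at −0.26 in the disomes-*ubp6Δ* and −0.49 in the disomes, and *SKN7* had a negative difference (−0.36, adjusted p = 0.0198 by limma). Of 8 other Yap1 targets, 2 were higher and none lower in the disomes-*ubp6Δ*, 1 higher and 2 lower in the disomes, and 3 higher and 1 lower in the difference. The differences past the test were those of *CCP1*, cytochrome c peroxidase (0.74), *OYE2*, an NADPH oxidoreductase (0.62), *FLR1*, a multidrug transporter (0.52), and *YCF1*, a vacuolar glutathione conjugate transporter (−0.23).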

How the data were processed

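Total RNA of strain and reference was labelled with Cy5 and Cy3 and hybridised to Agilent yeast expression arrays. The authors extracted the images with Agilent Feature Extraction 10.7.1.1 at default settings, so the deposited intensity values are processed signals of which background was subtracted and dyes were normalized; the deposited log10 ratios come from the same step. The deposited table of per-sample values is, from its match with the spot ratios, on the log2 scale as strain over reference, with medians of −0.04 to 0.01.

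The measure was log2 of the processed Cy5 over Cy3 signal. Excluded were controls, outliers in either dye, and spots for which no dye passed the scanner software's background call; the rest were averaged per probe, then per gene. Symbols came from the RefSeq annotation, which matched 5718 of 6176 open reading frames. A strain's own duplicated chromosome was left out. Values were tested against 0 with limma 3.58.1 (R 4.3.3), for genes with at least 6 strains or pairs, with Benjamini-Hochberg adjustment over all 5771 to 6005 genes and a threshold of 0.05. Between 5837 and 6081 genes were measured per disome-*ubp6Δ* and 5288 to 6132 per disome. With 12 arrays per genotype the means are imprecise. The p-values rest on the spread between arrays, in which strain differences and array error are mixed. Reference signals had a median r of 0.921 within slide A, 0.996 within B, 0.998 within C and 0.996 within D. Within slide C, which held both genotypes, r ran from 0.886 to 0.999, and between slides B and C it reached 0.980. The references of slide C were thus not all alike. For *AHP1* their level was 1.31 beside disome XVI and averaged 4.87 beside the disomes-*ubp6Δ*. Without slide as a block, the p-values do not cover an error that the references of a slide share. An error common to every reference of a genotype is in no p-value against 0.

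Pairs are strains with the same extra chromosome. Their deviations from the genotype means correlated with a median r of 0.32, over 0.1 in 11 of 12 pairs, against −0.041 for different chromosomes. In simulated data with 200 genes changed, a log2 change of 0.5 was found for 70% in the disomes-*ubp6Δ*, 81% in the disomes and 66% in the difference. The simulated noise was independent between arrays. In the data the slide block gave correlations of 0.18, 0.36 and 0.35 for these comparisons. The simulated shares therefore do not cover noise that arrays of a slide have in common. All 10 members were reported in full. From the other lists, genes past the test in both genotypes in the same direction or in the difference were named, at most 6 per list by size. Members and lists were chosen with earlier results of these data known. Alternatives were other spot filters, background correction, centring, slides, signs and pairing, and leaving out each strain.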

Additional observations from a re-analysis of the deposited data

Results flagged for a closer look

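*TSA1* was −0.33 in disome XII, far below the other 8 disomes measured, which lay between 0.15 and 0.60. The gap to the next strain was 0.51 of the whole range, against a limit of 0.493. The 2 *TSA1* spots of disome XII differed by 0.21 in log2 ratio, and 9.48% of the spots on its array were outliers. In the disome-*ubp6Δ* with chromosome XII *TSA1* was 0.41. Only 6 groups were small enough to be examined in this way, and chance marks about 5% of groups.

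*GRX5* differed between the genotypes by −0.24 (disome-*ubp6Δ* minus disome), below 0 in 11 of 11 pairs, by a test of the difference itself. Dye, slide and reference go with genotype here.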

How the results depend on the processing

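With slide as a random block, 1 member was called in the disomes-*ubp6Δ* (against 2), 3 in the disomes (against 6) and 0 in the difference (against 1, by limma; 3 had an unadjusted p under 0.05). Over all genes this block gave 579 calls in the disomes-*ubp6Δ*, 334 in the disomes, 737 in the difference and 1248 in the mean, against 2106, 2303, 1974 and 2196 without it, and with the duplicated chromosome kept the same 4 counts were 1366, 1528, 2041 and 1058. The disomes-*ubp6Δ* also had 1 call with the duplicated chromosome kept and 1 on slide D alone. The difference had 3 calls with outlier spots kept, 2 with normexp and loess, 3 in the deposited table and 2 after centring. With the labelled sign it had 5 and the mean had 1, since that sign exchanges these tests. The fit with no replicate block called 1 member in the difference, the same count as the paired fit. No slide combination held 6 pairs, so the difference and the mean were not refitted within one. The cause of the other changes was not tested.

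Signs turned as follows. On slide A alone the disome means were −0.024 for *GRX2*, −0.10 for *AHP1* and −0.038 for *PRX1*. With the labelled sign the disome-*ubp6Δ* means were −0.13 for *TRX1*, −0.25 for *TRX2*, 0.11 for *TRR1*, −0.24 for *GRX1*, −0.20 for *GRX2*, 0.072 for *GRX5*, −0.36 for *TSA1*, −0.17 for *TSA2*, 0.012 for *AHP1* and −0.27 for *PRX1*. The differences were then −0.31 for *GRX2* and −0.66 for *TSA1*, and the means −0.049 for *GRX2* and −0.068 for *TSA1*. With the duplicated chromosome kept, *GRX5* was 0.0096 in the disomes-*ubp6Δ* and *TRX1* 0.027 in the difference, which normexp put at 0.036. Centring gave *AHP1* 0.036 in the disomes-*ubp6Δ*.

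Leaving out each strain in turn gave 1 to 4 calls in the disomes-*ubp6Δ* (4 without XII), 5 to 6 in the disomes, 1 to 4 in the difference (4 without XIII) and 5 to 6 in the mean. Values that changed sign ran from −0.12 to 0.066 for the disome-*ubp6Δ* mean of *AHP1*, from −0.086 to 0.029 for the *TRX1* difference and from −0.15 to 0.014 for the *PRX1* difference.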
